A study of Mus musculus with 9 samples.

Results

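Metallothioneins are small, cysteine-rich proteins that bind zinc and copper, and their genes are switched on when free zinc inside the cell rises. The zinc sensor of that response is Mtf1, a zinc-finger transcription factor that binds metal response elements in the promoters of Mt1, Mt2 and Slc30a1, and Slc30a1 (ZnT1) exports zinc through the plasma membrane. In the pancreas, zinc is stored in the granules of acinar and beta cells, and in rodents before birth the liver holds large amounts of metallothionein. The 4 genes Mt1, Mt2, Mtf1 and Slc30a1 were taken by name from the 55453 genes of the count files. They had been picked with values of these libraries in view, so their levels and differences are given as descriptions. How many of them the test across all genes called is printed beside the share of all genes, and nothing is read from it. All 4 passed the filter on low counts, which kept 19166 genes.

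RNA of the whole e18.5 mouse pancreas was sequenced in 9 libraries. The strain was a mixed C57BL6 one, and each of the 3 genotypes had 3 libraries. The groups were labelled Pdx1:Cre;Grg3Grg4, Pdx1:Cre;Grg3 and Pdx1:Cre. The Pdx1:Cre transgene is thus shared by all 3 groups, and since Pdx1 is a gene of the pancreatic epithelium, its promoter is not known to act in most of the other cells of the whole organ. Grg3 and Grg4 are Groucho co-repressors, and their genes are Tle3 and Tle4. The design gives 3 embryos per genotype and no litters, so p-values measure the spread between these embryos and their libraries.

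Gene counts summed to 46817453 to 62744499 per library. Tle3 stood at 126 to 146, 145 to 167 and 63.1 to 67.7 CPM (counts scaled to a common library size) in the libraries labelled Grg3Grg4, in those labelled Grg3 and in the Pdx1:Cre controls. Tle4 stood at 8.63 to 15.5, 9.83 to 13.8 and 7.68 to 7.85 CPM in the same order. A gene count does not show whether exons were deleted, but neither gene was lower where the labels name a mutation, and Tle3 was higher, so the groups are called by their labels throughout. The controls also nearly lacked Foxa1, which averaged 12.4 ± 1.03, 12.8 ± 2.02 and 0.0282 ± 0.0117 CPM in the same order (SD, n = 3 each). The 3 controls held 4 counts of Foxa1 together. The reason was not tested, and every difference over control given here is taken over these libraries. All 3 libraries labelled Grg3Grg4, replicate 1 of those labelled Grg3 and control replicate 1 were male by Xist and Ddx3y, and the other 4 were female. Replicate 2 of the libraries labelled Grg3Grg4 stood apart in the striated muscle actin Actc1, at 171.6 CPM against 5.32 and 1.08 CPM in replicates 1 and 3. The organ's own markers were present in every library, with a summed level of 10 acinar markers of 130800 to 153700, 116200 to 212200 and 190900 to 214400 CPM in the 3 groups in the same order. In whole tissue, fewer cells of a type and less RNA per cell cannot be told apart.

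Mt1, Mt2, Mt3 and Mt4 lie side by side on chromosome 8 of the mouse. Mt1 spans 94179082 to 94180327 and Mt2 spans 94172664 to 94173568, both on the plus strand of GRCm38. The promoters of Mt1, Mt2 and Slc30a1 are printed because these genes are the classical targets of Mtf1, and Mt1 and Mt2 moved together across the libraries. Each line gives the RefSeq sequence (GRCm38.p6) ahead of the first annotated transcribed base. Capitals mark the core of the metal response element, searched as TGCACNC and TGCGCNC on both strands, and matches on the minus strand appear as their reverse complement. The windows are chr8:94178839-94179081, chr8:94172368-94172617 and chr1:191906531-191906766, all on the plus strand.
Mt1: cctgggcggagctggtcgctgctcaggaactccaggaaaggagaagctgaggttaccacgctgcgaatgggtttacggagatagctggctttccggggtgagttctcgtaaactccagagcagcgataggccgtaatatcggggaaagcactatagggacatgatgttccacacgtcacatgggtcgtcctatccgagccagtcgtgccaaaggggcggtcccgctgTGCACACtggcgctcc
Mt2: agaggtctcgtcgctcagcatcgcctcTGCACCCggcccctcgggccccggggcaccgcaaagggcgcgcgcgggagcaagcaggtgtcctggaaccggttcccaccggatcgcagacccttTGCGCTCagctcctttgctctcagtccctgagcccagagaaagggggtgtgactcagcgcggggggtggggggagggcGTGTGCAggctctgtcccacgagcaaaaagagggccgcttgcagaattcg
Slc30a1: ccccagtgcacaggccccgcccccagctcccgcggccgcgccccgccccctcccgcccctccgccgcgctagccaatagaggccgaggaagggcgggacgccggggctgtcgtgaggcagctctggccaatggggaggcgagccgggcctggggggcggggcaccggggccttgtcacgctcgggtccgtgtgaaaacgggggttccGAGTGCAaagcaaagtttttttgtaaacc

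Over the full windows of 300 bases, which run 250 before to 50 after the RefSeq start, the core was found 3 times at Mt1, 4 times at Mt2 and 2 times at Slc30a1. At Mt1, 1 match (TGCACAC) lay ahead of the start and 2 (TGCACTC and TGCGCTC) lay past it. GENCODE gives Mt1 3 transcripts, which start at 94179082, 94179211 and 94179241, so all 3 matches lie ahead of the 2 downstream starts, and which start these pancreata used was not measured. At Mt2, 3 matches lay ahead of the RefSeq start and 1 past it, and all 4 lay ahead of the GENCODE start at 94172664. Slc30a1 had 1 match on either side. The window of Mtf1 held 0 matches, and those of Mt3 and Mt4 held 1 each. Of 32851 promoters of the same length, 25.7% held at least 1 match, 7.11% at least 2, 1.97% at least 3 and 0.517% at least 4. The core of the antioxidant response element, TGACNNNGC, was found 1 time each at Mt2 and Slc30a1 and 0 times at Mt1 and Mtf1, and 12.4% of the promoters held it. A match is a run of letters and not a measured binding site.

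Mt1, the most abundant of the 4 genes, stood higher in all 6 libraries labelled mutant than in any control. It was measured at 383, 501 and 400 CPM in replicates 1, 2 and 3 labelled Grg3Grg4. It was measured at 816.5, 290 and 1432 CPM in replicates 1, 2 and 3 labelled Grg3. The Pdx1:Cre controls had 156, 195 and 87.3 CPM. The libraries labelled Grg3 were the most uneven group, with a highest level 4.94 times the lowest, against 1.31 times in those labelled Grg3Grg4 and 2.23 times in the controls. The lowest library labelled Grg3Grg4 was 1.96-fold above the highest control, and the lowest labelled Grg3 was 1.49-fold above it.

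The mean level of Mt1 was 428 ± 63.7 CPM in the libraries labelled Grg3Grg4, 846 ± 571 CPM in those labelled Grg3 and 146 ± 54.5 CPM in the controls (SD, n = 3 each). The fitted log2 change of Mt1 over control was 1.55 (SE 0.48) for the label Grg3Grg4 and 2.53 (SE 0.49) for the label Grg3. By mean level among the 19166 genes, Mt1 ranked 171 in the libraries labelled Grg3Grg4, 75 in those labelled Grg3 and 762 in the controls. Within each sex the libraries also did not overlap. The males had 383 to 501 CPM with the label Grg3Grg4 and 816.5 CPM with the label Grg3, against 156 CPM in the male control. The females labelled Grg3 had 290 and 1432 CPM, against 195 and 87.3 CPM in the female controls.

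**Figure D1:**
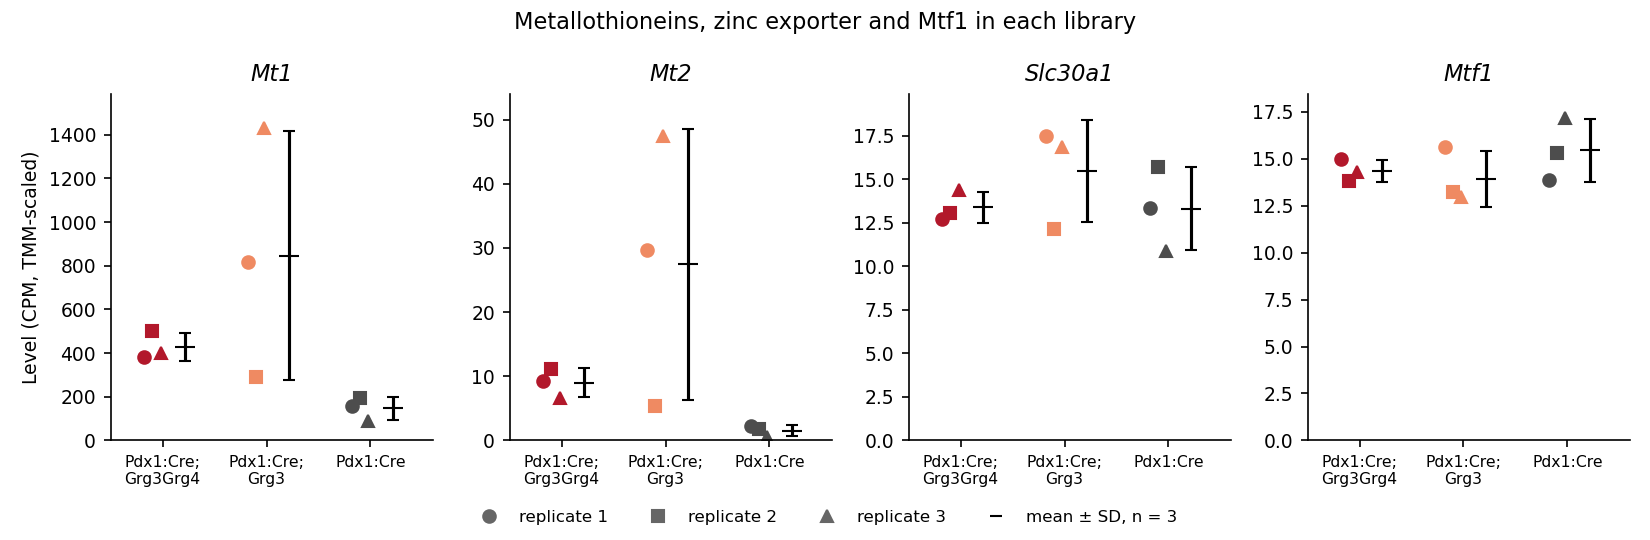
Levels of the 4 genes in CPM (vertical axes, each from 0) in every library, by label (horizontal axis). Points are single libraries, shaped by replicate, and bars give mean ± SD (n = 3). For Mt1 and Mt2 all 6 libraries labelled mutant lie above the controls, while for Slc30a1 and Mtf1 the groups overlap.

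Mt2, the second ubiquitous metallothionein, had the same order of groups at a far lower level. Its level was 9.19, 11.1 and 6.67 CPM in replicates 1, 2 and 3 labelled Grg3Grg4. Those labelled Grg3 had 29.7, 5.30 and 47.4 CPM. The Pdx1:Cre controls had 2.19, 1.76 and 0.594 CPM, from 105, 84 and 27 counts. Each of the 6 libraries labelled mutant again lay above all 3 controls, and replicate 2 labelled Grg3 was again the lowest of its group. The fitted log2 change over control was 2.57 (SE 0.70) for the label Grg3Grg4 and 4.17 (SE 0.73) for the label Grg3. Without replicate 3 labelled Grg3, the library with the most Mt1 and Mt2, these changes for the label Grg3 were 1.92 for Mt1 and 3.52 for Mt2. Without control replicate 3, the library with the least Mt1 and Mt2, those for the label Grg3Grg4 were 1.29 for Mt1 and 2.19 for Mt2. Without replicate 2 labelled Grg3Grg4, the library with high Actc1, the changes for the label Grg3Grg4 were 1.42 for Mt1 and 2.38 for Mt2.

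The counts of Mt2 come with a limit of annotation. Gm45774, an antisense gene on the minus strand (chromosome 8, 94170748 to 94173412), covers 432 of the 588 exon bases of Mt2, or 73.5%. Outside it lie 156 bases at the 3′ end of Mt2. Gm45774 is itself a row of the count files, and whether the counting used strand was not stated in any label. Without strand, reads over the shared bases cannot be told apart, and HTSeq by default sets such reads aside as ambiguous, a class with 5.14% to 5.97% of each library's reads. The part of this overlap in the low level of Mt2 was not tested.

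**Figure D2:**
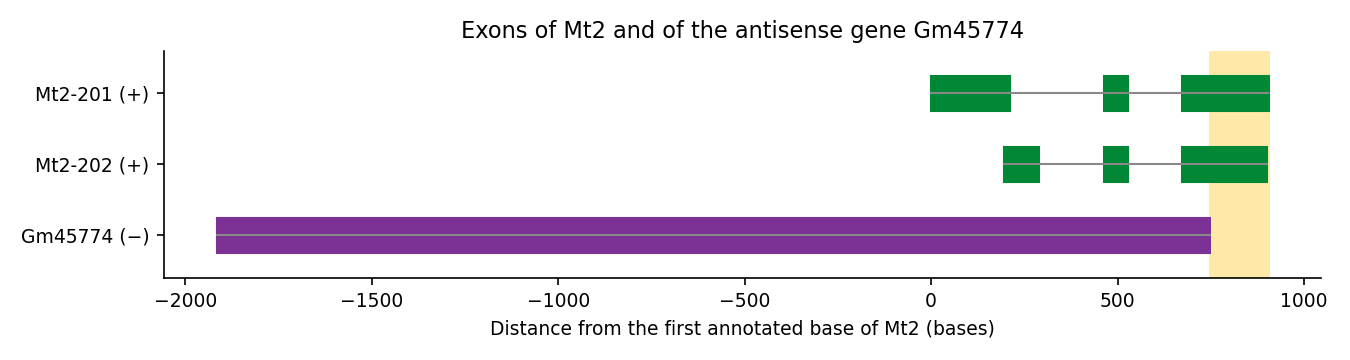
Exons (boxes) of the 2 Mt2 transcripts and of Gm45774 along the distance in bases from the first annotated base of Mt2. The shaded stretch marks the 156 exon bases of Mt2 outside Gm45774.

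Gm45774 had 40, 118 and 41 counts in replicates 1, 2 and 3 labelled Grg3Grg4. It had 46, 16 and 237 counts in those labelled Grg3, against 21, 10 and 3 counts in the controls. Replicate 3 labelled Grg3 and replicate 2 labelled Grg3Grg4 were the highest, and the libraries labelled Grg3 overlapped the controls once scaled, at 0.840, 0.2195 and 4.80 CPM against 0.438, 0.209 and 0.0660 CPM. Its log2 changes over control of 2.19 (label Grg3Grg4) and 3.01 (label Grg3) did not pass the edgeR test (adjusted p = 0.263 and 0.155), and that for the label Grg3 was 1.13 without its replicate 3. DESeq2 called the change for the label Grg3 (adjusted p = 0.0145) and not that for the label Grg3Grg4 (adjusted p = 0.108). This gene was chosen after its values were seen. With its counts added to those of Mt2, the log2 change of Mt2 over control was 2.52 for the label Grg3Grg4 and 4.06 for the label Grg3.

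Mt2 also gained on Mt1 within the same library, a comparison that needs no scaling between libraries. Of the counts of Mt1 and Mt2 together, Mt2 made up 2.34%, 2.17% and 1.64% in replicates 1, 2 and 3 labelled Grg3Grg4. It made up 3.51%, 1.79% and 3.21% in those labelled Grg3, against 1.39%, 0.895% and 0.676% in the controls. The mean share was 2.05% ± 0.365, 2.84% ± 0.919 and 0.987% ± 0.366 in the 3 groups in that order (SD, n = 3 each). All 6 libraries labelled mutant lay above the highest control. The exact 95% intervals, which cover counting error only, met for the nearest pair, from 1.47% to 1.83% in replicate 3 labelled Grg3Grg4 and from 1.13% to 1.67% in control replicate 1. The interval of replicate 2 labelled Grg3, from 1.62% to 1.98%, also met that of control replicate 1. The longest run of bases shared by the transcripts Mt1-201 and Mt2-201 was 20.

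**Figure D3:**
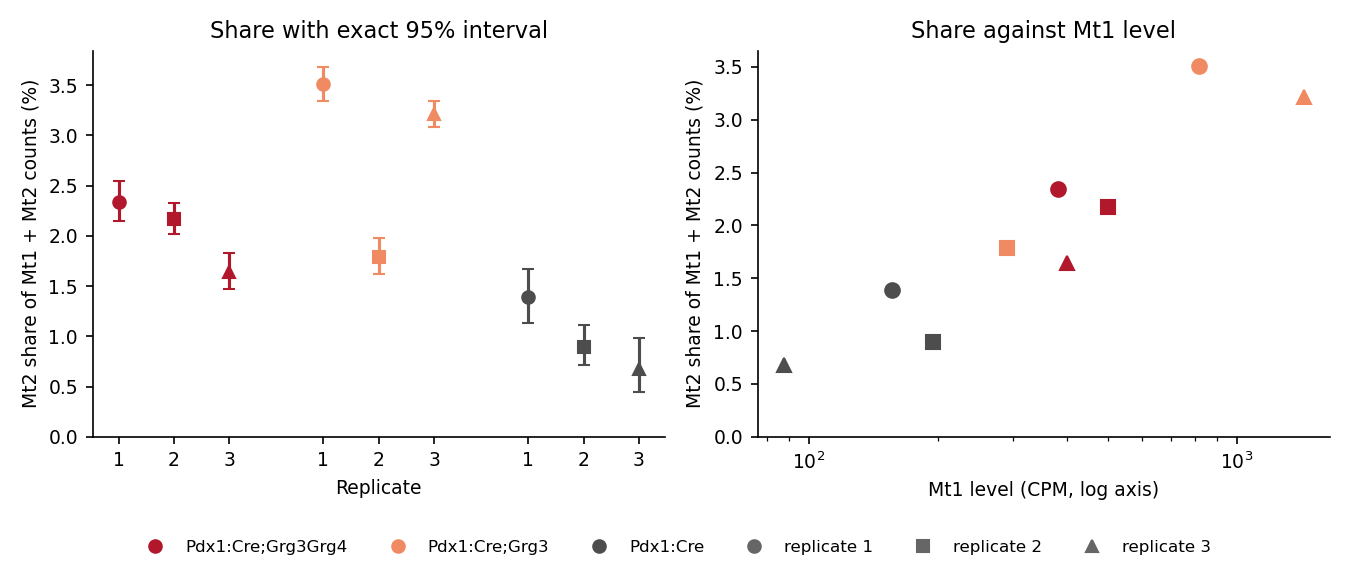
Left, share of Mt2 in the counts of Mt1 and Mt2 (percent) for each library with its exact 95% interval, and right, the same share against the Mt1 level (CPM, log axis). The shares run from 0.676% in control replicate 3 to 3.51% in replicate 1 labelled Grg3. Across the libraries, those with more Mt1 tend to have the larger share. Within each group, though, the library with the most Mt1 does not have the largest share.

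Levels of different genes can be set side by side only per length. Per kilobase of exon, Mt1 stood at 343 ± 51.1, 679 ± 459 and 117 ± 43.7 CPM in the libraries labelled Grg3Grg4, in those labelled Grg3 and in the controls (SD, n = 3 each). Mt2 stood at 15.3 ± 3.78, 46.7 ± 36.0 and 2.58 ± 1.40 CPM per kilobase. Over only the 156 bases outside Gm45774, taking every counted read to come from them, Mt2 would stand at 57.6 ± 14.2, 176 ± 136 and 9.71 ± 5.30 CPM per kilobase. Reads that reach from these bases into the shared ones would be set aside too. The usable length would then be shorter than 156 bases and the level of Mt2 higher, by an amount that was not measured. These values therefore cannot rank Mt2 against Mt1. Slc30a1 stood at 2.55 ± 0.172, 2.95 ± 0.558 and 2.54 ± 0.458 CPM per kilobase, and Mtf1 at 1.61 ± 0.0657, 1.56 ± 0.167 and 1.73 ± 0.188 CPM per kilobase. Over all exon bases, Mt2 and Slc30a1 did not differ beyond their spread in the controls, and in both groups labelled mutant Mt2 stood above Slc30a1. Over the 156 bases alone, the mean of Mt2 was above that of Slc30a1 in the controls too, at 9.71 ± 5.30 against 2.54 ± 0.458 CPM per kilobase. The merged exons of Mt1 cover its whole span, and over the spliced transcript Mt1-201 its level was 779 ± 116, 1540 ± 1040 and 266 ± 99.3 CPM per kilobase.

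Slc30a1, the zinc exporter, did not separate the groups, although its mean was also highest with the label Grg3. It was measured at 12.7, 13.1 and 14.4 CPM in replicates 1, 2 and 3 labelled Grg3Grg4. Those labelled Grg3 had 17.5, 12.1 and 16.9 CPM, against 13.3, 15.7 and 10.9 CPM in the controls. The groups overlapped in every comparison. The log2 change over control was 0.01 (SE 0.17) for the label Grg3Grg4, which ranged from -0.12 to 0.14 over the alternatives, and 0.22 (SE 0.17) for the label Grg3. Within each of the 3 groups the library with the least Mt1 also had the least Slc30a1: replicate 1 labelled Grg3Grg4, replicate 2 labelled Grg3 and control replicate 3. Slc30a1 spans 191906767 to 191913247 on chromosome 1, and the antisense gene 1700034H15Rik covers 8.92% of its exon bases.

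Mtf1, the metal-sensing factor itself, was flat. Its level was 14.99, 13.8 and 14.3 CPM in replicates 1, 2 and 3 labelled Grg3Grg4. Those labelled Grg3 had 15.6, 13.2 and 12.9 CPM, against 13.9, 15.3 and 17.2 CPM in the controls. The groups overlapped, with log2 changes over control of -0.10 (SE 0.12) for the label Grg3Grg4 and -0.15 (SE 0.12) for the label Grg3. Mtf1 spans 124802104 to 124849800 on chromosome 4, and the antisense gene 1110065P20Rik covers 8.09% of its exon bases. The RNA level of Mtf1 says nothing of the zinc-dependent activity of its protein, which was not measured.

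Of the 4 genes, Mt1 and Mt2 lay above the controls without overlap for both labels. That held for 14.9% of all genes tested for the label Grg3Grg4 (29.1% in either direction) and for 12.6% for the label Grg3 (24.6% in either direction). By edgeR's quasi-likelihood test with Benjamini-Hochberg adjustment, 0 of the 4 were called at an adjusted p under 0.05 for the label Grg3Grg4, against 2.14% of all genes (1.24% higher and 0.897% lower). For the label Grg3, 2 of the 4 (Mt1 and Mt2) were called, against 1.40% of all genes (0.704% higher and 0.694% lower). Since the genes were picked on these contrasts, nothing is read from these counts. Both comparisons use the same 3 controls.

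Between the groups labelled mutant, Mt1 and Mt2 were lower on average with the label Grg3Grg4 than with the label Grg3, and the libraries overlapped. The fitted log2 difference, Grg3Grg4 over Grg3, was -0.98 (SE 0.47) for Mt1 and -1.61 (SE 0.64) for Mt2. Replicate 2 labelled Grg3, at 290 CPM of Mt1, lay below all 3 libraries labelled Grg3Grg4, while replicates 1 and 3 lay above them. Without replicate 3 labelled Grg3 the difference was -0.37 for Mt1 and -0.96 for Mt2. For Slc30a1 it was -0.21 (SE 0.17) and for Mtf1 0.05 (SE 0.12). In this comparison 0 of the 4 genes were without overlap, where 21.1% of all genes were (11.8% higher and 9.31% lower). None of the 4 was called by edgeR, where 0.188% of all genes were (0.130% higher and 0.0574% lower).

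Genes of hepatocytes moved with the same labels and are given beside the metallothioneins, since the fetal liver is rich in metallothionein. The 16 hepatocyte markers summed to 1023, 1198 and 2218 CPM in replicates 1, 2 and 3 labelled Grg3Grg4. They summed to 2079, 402 and 986 CPM in those labelled Grg3, against 360, 367 and 299 CPM in the controls. In the controls nearly all of that was Ambp, Vtn and F2, and the other 13 markers summed to 15.1, 7.75 and 6.69 CPM, with 0, 1 and 4 of the 16 markers at 0 counts. These 13 summed to 569, 795 and 1762 CPM with the label Grg3Grg4 and to 1505, 87.4 and 478 CPM with the label Grg3. By the edgeR test 11 of the 16 rose for the label Grg3Grg4 and 10 of the 16 for the label Grg3. Of all genes, 1.24% and 0.704% rose by that test.

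The order of the libraries was partly shared between Mt1 and these markers. Alb, which encodes serum albumin, stood at 257, 362 and 810 CPM in replicates 1, 2 and 3 labelled Grg3Grg4. It stood at 636, 37.9 and 220 CPM in those labelled Grg3, against 5.47, 2.37 and 2.49 CPM in the controls. All 6 libraries labelled mutant lay above the controls in both genes, and replicate 2 labelled Grg3 was the lowest of the 6 in both. Replicate 3 labelled Grg3 had the most Mt1 of all libraries and less Alb than replicate 1 of its group. Replicate 3 labelled Grg3Grg4 had the most Alb of all libraries and less Mt1 than replicate 2 of its group. Counts of Alb per count of Mt1 ran from 0.671 to 2.03 with the label Grg3Grg4, from 0.131 to 0.779 with the label Grg3 and from 0.0121 to 0.0351 in the controls. The part of liver RNA in the level of Mt1 and Mt2 was not tested.

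**Figure D4:**
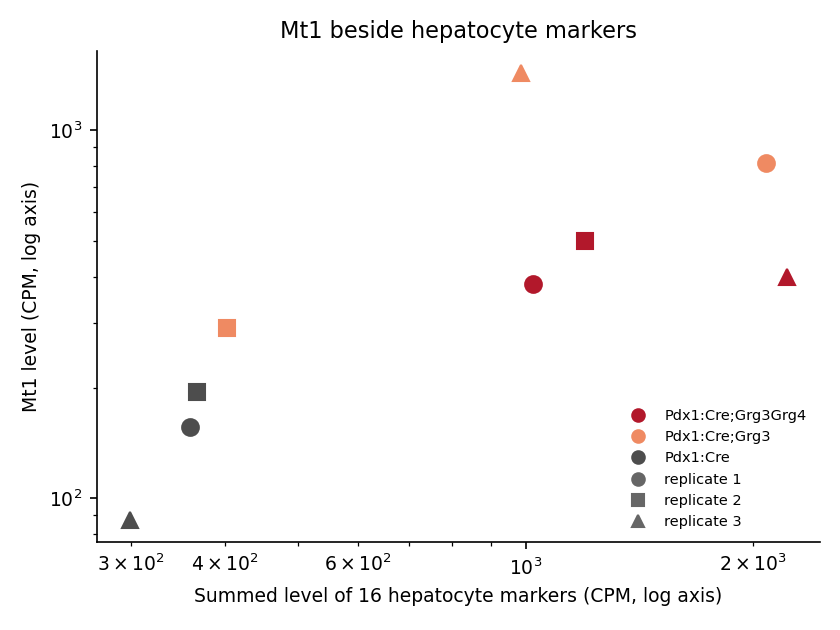
Mt1 level against the summed level of 16 hepatocyte markers (CPM, both axes logarithmic), 1 point per library, coloured by label and shaped by replicate. Replicate 3 labelled Grg3 has the most Mt1, at 1432 CPM with 986 CPM of markers, while replicate 3 labelled Grg3Grg4 has the most marker RNA, at 2218 CPM with 400 CPM of Mt1.

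Of the markers of other tissues that a dissected organ could hold, those of muscle stood above the controls for both labels. They summed to 212 to 2001, 296 to 779 and 122 to 175 CPM in the libraries labelled Grg3Grg4, in those labelled Grg3 and in the controls, with 0 of 8 called by edgeR for either label. Leukocyte, adipocyte and stomach markers stood above the controls for the label Grg3 and overlapped them for the label Grg3Grg4. Leukocyte markers summed to 86.9 to 209, 148 to 190 and 92.8 to 122 CPM in the same order, with 0 of 7 called by edgeR for either label. Adipocyte markers summed to 128 to 166, 176 to 197 and 123 to 144 CPM, with 0 of 2 tested called by edgeR for either label. Nearly all of that sum was Fabp4 and Lpl, and Adipoq, Plin1 and Cidec did not pass the filter on low counts. In the libraries labelled Grg3, Adipoq had 0 counts, and Plin1 and Cidec averaged 0.0128 and 0.0758 CPM.

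Stomach markers summed to 14.2 to 24.96, 30.7 to 36.7 and 8.93 to 14.9 CPM, and of the 2 tested the gastrin gene Gast rose for both labels. Gast averaged 8.70 ± 1.89, 19.4 ± 1.65 and 0.924 ± 0.205 CPM (SD, n = 3 each; edgeR adjusted p = 0.000149 and 1.03e-05). Barx1, a transcription factor of the stomach mesenchyme, averaged 11.9 ± 5.39, 9.69 ± 1.24 and 11.4 ± 3.19 CPM, with overlap in both comparisons. Gkn1, Gkn2 and Tff1, which did not pass the filter, stood at 3.63, 6.36 and 0.628 CPM in replicate 3 labelled Grg3. That is the library with the most Mt1 and Mt2, and every other library had at most 0.0838 CPM of each. Intestine markers summed to 34.3 to 40.4, 19.3 to 49.6 and 35.1 to 43.5 CPM, with overlap for both labels. Of the 4 tested, 1 (Lgals4) rose for the label Grg3 by edgeR and 0 passed for the label Grg3Grg4. Lgals4 averaged 4.52 ± 1.08, 6.24 ± 1.77 and 2.38 ± 0.142 CPM (SD, n = 3 each; edgeR adjusted p = 0.083 and 0.0324). The part of these tissues in the metallothionein levels was not tested.

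Among the other metallothioneins, Mt3, known as the brain form, was called for the label Grg3. It was measured at 1.84, 1.16 and 1.20 CPM in replicates 1, 2 and 3 labelled Grg3Grg4. The libraries labelled Grg3 had 2.10, 1.28 and 2.25 CPM, from 93 to 115 counts, against 0.626, 0.607 and 0.682 CPM from 29 to 31 counts in the controls. Each library labelled mutant lay above all controls, as was so for 14.9% (label Grg3Grg4) and 12.6% (label Grg3) of all genes. Mt3 rose by 1.55 (SE 0.31) on the log2 scale for the label Grg3 (edgeR adjusted p = 0.0460), a call lost in 10 of 18 alternatives, among them leaving out any 1 control, replicate 1 or 3 labelled Grg3, or replicate 1 or 3 labelled Grg3Grg4 (adjusted p from 0.000957 to 0.179). For the label Grg3Grg4 its change of 1.13 (SE 0.31) did not pass (edgeR adjusted p = 0.0882), and neither did its difference of -0.42 between the groups labelled mutant (edgeR adjusted p = 0.501). Mt4, the form of squamous epithelium, had 0 counts in all 9 libraries.

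The Slc30 family moves zinc out of the cytosol, into vesicles or out of the cell. Besides Slc30a1, 8 of its 9 listed members were tested. For the label Grg3Grg4, 1 fell and 7 did not pass, with a median log2 change of -0.07 against 0.01 over all genes. For the label Grg3, 0 passed by edgeR (3 at an unadjusted p under 0.05), with a median of -0.02 against 0.02. The exporter that fell was Slc30a8 (ZnT8), which loads zinc into the insulin granules of beta cells. Its level was 10.4, 8.57 and 18.9 CPM in replicates 1, 2 and 3 labelled Grg3Grg4. Those labelled Grg3 had 20.5, 20.2 and 15.5 CPM, against 24.1, 30.7 and 33.8 CPM in the controls.

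All 6 libraries labelled mutant held less Slc30a8 than any control, where 14.2% (label Grg3Grg4) and 12% (label Grg3) of all genes lay lower without overlap. It fell by 1.23 (SE 0.27) on the log2 scale for the label Grg3Grg4 (edgeR adjusted p = 0.0465), while for the label Grg3 the change was -0.65 (SE 0.26, edgeR adjusted p = 0.214). The call was lost in 10 of 18 alternatives, including a term for embryo sex and leaving out any 1 control, replicate 1 or 3 labelled Grg3, or replicate 1 or 2 labelled Grg3Grg4 (adjusted p from 0.000131 to 0.200). The 10 endocrine markers summed to 1830 to 3984 CPM with the label Grg3Grg4, 3449 to 5519 CPM with the label Grg3 and 5689 to 6901 CPM in the controls. The part of the endocrine cells in the level of Slc30a8 was not tested.

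Other exporters kept within their spread or missed the threshold. Slc30a4, a vesicular exporter, averaged 22.2 ± 2.26, 22.8 ± 4.51 and 28.5 ± 2.30 CPM in the libraries labelled Grg3Grg4, in those labelled Grg3 and in the controls (SD, n = 3 each). Slc30a7, which fills the early secretory pathway, averaged 48.2 ± 4.87, 48.6 ± 6.30 and 57.7 ± 1.77 CPM. Slc30a5, which acts in the same pathway, averaged 63.4 ± 6.84, 69.2 ± 10.8 and 70.4 ± 0.962 CPM. The changes of these 3 over control, from -0.36 to -0.02, did not pass (edgeR adjusted p from 0.198 to 0.936). Slc30a2, which is known from mouse to respond to Mtf1 in acinar and mammary cells, stood at 2.30 ± 0.298, 3.04 ± 1.58 and 1.77 ± 0.606 CPM and missed the threshold for both labels (edgeR adjusted p = 0.670 and 0.351). Slc30a10, a manganese exporter, stood at 1.95, 0.338 and 0.694 CPM in replicates 1, 2 and 3 labelled Grg3Grg4 and at 0.0209 to 0.440 CPM in the controls. The change of Slc30a10 did not pass (edgeR adjusted p = 0.332).

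The Slc39 (ZIP) family brings zinc into the cytosol. Of 14 listed members 13 were tested, and most lay below control. For the label Grg3Grg4, 12 of the 13 had a log2 change below 0 and 1 fell, with a median of -0.28 against 0.01 over all genes. For the label Grg3, 11 of the 13 were below 0 and 1 fell, with a median of -0.31 against 0.02. The member that fell for the label Grg3Grg4 was Slc39a10, a plasma membrane importer that zinc and Mtf1 are known to repress in mouse cells. The level of Slc39a10 was 45.5, 37.1 and 47.7 CPM in replicates 1, 2 and 3 labelled Grg3Grg4. Those labelled Grg3 had 45.3, 55.9 and 51.0 CPM, against 61.9, 64.3 and 81.6 CPM in the controls.

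The 6 libraries labelled mutant all lay below the controls for Slc39a10, as did 14.2% (label Grg3Grg4) and 12% (label Grg3) of all genes. It fell by 0.67 (SE 0.13) on the log2 scale for the label Grg3Grg4 (edgeR adjusted p = 0.0356), and for the label Grg3 its change of -0.45 (SE 0.13) did not pass (edgeR adjusted p = 0.116). The call was lost in 8 of 18 alternatives, which were the fit with embryo sex and leaving out any 1 control, any 1 library labelled Grg3Grg4 or replicate 3 labelled Grg3 (adjusted p from 0.000315 to 0.190). Between the groups labelled mutant Slc39a10 differed by -0.22 (SE 0.13), which did not pass (edgeR adjusted p = 0.413).

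The member that fell for the label Grg3 was Slc39a2, an importer of low abundance. The level of Slc39a2 was 3.28, 2.98 and 4.37 CPM in replicates 1, 2 and 3 labelled Grg3Grg4. The libraries labelled Grg3 had 1.74, 2.09 and 1.62 CPM, against 3.94, 3.50 and 6.996 CPM in the controls. The 3 libraries labelled Grg3 lay below all others, and those labelled Grg3Grg4 overlapped the controls. Against the controls alone, 12% of all genes lay lower without overlap for the label Grg3. Slc39a2 fell by 1.40 (SE 0.29) on the log2 scale for the label Grg3 (edgeR adjusted p = 0.0482) and was not called for the label Grg3Grg4, at -0.44 (SE 0.28, edgeR adjusted p = 0.416), and the difference of 0.96 between the groups labelled mutant did not pass either (edgeR adjusted p = 0.148). The call was lost in 12 of 18 alternatives, among them leaving out any 1 library other than replicate 2 labelled Grg3Grg4 (adjusted p from 0.000202 to 0.174), and the change was -1.03 without control replicate 3.

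**Figure D5:**
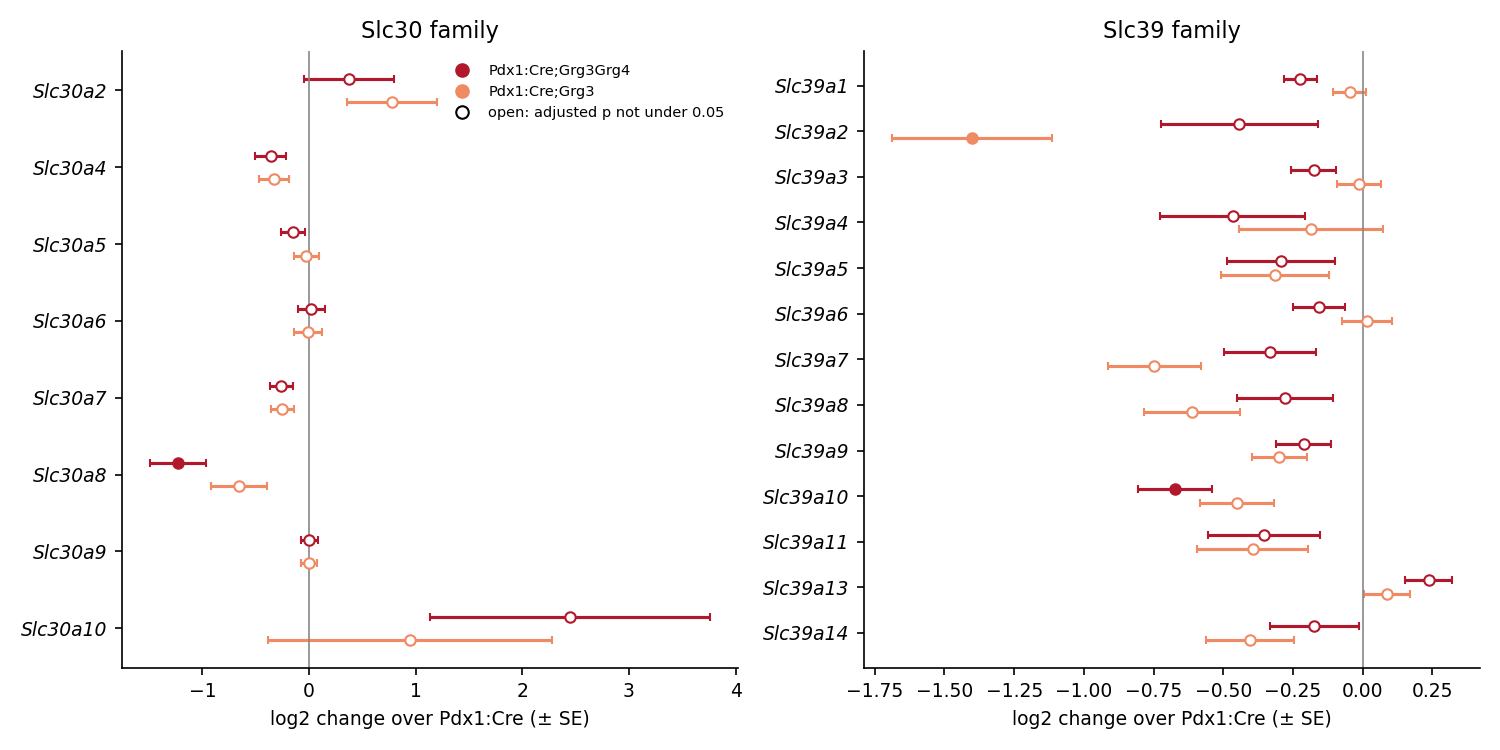
Fitted log2 change over the Pdx1:Cre controls (horizontal axis, ± SE) of the 8 tested Slc30 genes other than Slc30a1 and of the 13 tested Slc39 genes. Filled points have an edgeR adjusted p under 0.05: Slc30a8 and Slc39a10 for the label Grg3Grg4, and Slc39a2 for the label Grg3.

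Per kilobase the leading zinc importer of the controls was Slc39a5, at 91.4 ± 7.95 CPM per kilobase, and Slc39a11 (31.3 ± 1.71) and Slc39a1 (31.2 ± 0.486) came next without differing beyond their spread (SD, n = 3). Slc39a5, a basolateral importer of acinar cells, averaged 166 ± 12.6, 164 ± 52.8 and 203 ± 17.7 CPM in the libraries labelled Grg3Grg4, in those labelled Grg3 and in the controls, without a call for either label (edgeR adjusted p = 0.439 and 0.410). Slc39a1, a plasma membrane importer, averaged 63.2 ± 0.477, 71.5 ± 0.313 and 73.8 ± 1.15 CPM, a change of -0.22 (SE 0.06) for the label Grg3Grg4 that did not pass (edgeR adjusted p = 0.0815). Slc39a7, which releases zinc from the endoplasmic reticulum and Golgi, averaged 7.04 ± 0.968, 5.29 ± 0.637 and 8.87 ± 1.40 CPM, a change of -0.75 (SE 0.17) for the label Grg3 that did not pass (edgeR adjusted p = 0.0608). Slc39a8 averaged 28.3 ± 4.66, 22.5 ± 5.27 and 34.4 ± 1.17 CPM, again without a call (edgeR adjusted p = 0.400 and 0.105).

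Other genes known as Mtf1 targets gave 1 call. Of 8 listed, 1 (Slc39a10) fell for the label Grg3Grg4 and 0 passed for the label Grg3 by edgeR (4 at an unadjusted p under 0.05), with medians of 0.04 and -0.16. Selenow, a selenoprotein, stood at 90.2 ± 10.2, 123 ± 15.6 and 87.1 ± 12.8 CPM in the libraries labelled Grg3Grg4, in those labelled Grg3 and in the controls (edgeR adjusted p = 0.875 and 0.0978). Pgf, a growth factor of the VEGF family, stood at 20.2 ± 2.71, 24.7 ± 4.31 and 17.8 ± 1.15 CPM (edgeR adjusted p = 0.523 and 0.123). Csrp1, a cytoskeletal LIM protein, stood at 235 ± 9.61, 267 ± 16.2 and 215 ± 27.0 CPM (edgeR adjusted p = 0.536 and 0.154). For these 3 genes all libraries labelled Grg3 lay above the controls, as did 12.6% of all genes, and those labelled Grg3Grg4 overlapped them. Cebpa lay the other way, at 16.3 ± 2.06, 19.9 ± 5.71 and 23.8 ± 2.76 CPM (edgeR adjusted p = 0.155 and 0.501). Of the 8 targets, 3 had a log2 change below 0 for the label Grg3Grg4 and 5 for the label Grg3. Gclc, the catalytic subunit of glutathione synthesis, stood at 38.4 ± 2.04, 27.1 ± 2.29 and 30.5 ± 0.729 CPM. All 3 libraries labelled Grg3Grg4 lay above the rest for Gclc, and neither its change of 0.33 over control nor its difference of 0.50 over the label Grg3 passed (edgeR adjusted p = 0.0712 and 0.0518).

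Metallothioneins are also known to respond to glucocorticoids, to oxidative stress and to interleukin-6. Of 11 glucocorticoid response genes, 1 fell for the label Grg3Grg4 and 0 passed for the label Grg3 by edgeR (5 at an unadjusted p under 0.05), with medians of -0.05 and 0.11. The gene that fell was Nr3c1, the glucocorticoid receptor itself, at 70.8, 55.0 and 63.3 CPM in replicates 1, 2 and 3 labelled Grg3Grg4, against 84.4, 85.1 and 87.5 CPM in the controls. Its libraries did not overlap, and 14.2% of all genes lay lower without overlap for this label. Nr3c1 fell by 0.44 (SE 0.09) on the log2 scale (edgeR adjusted p = 0.0447), a call lost in 9 of 18 alternatives, including a term for embryo sex and leaving out any 1 control, replicate 1 or 3 labelled Grg3, or replicate 2 or 3 labelled Grg3Grg4 (adjusted p from 0.00199 to 0.197). For the label Grg3 it stood at 64.6, 63.1 and 70.5 CPM, a change of -0.38 (SE 0.09) that did not pass (edgeR adjusted p = 0.0814). The receptor's target Fkbp5 averaged 54.7 ± 5.49, 57.8 ± 1.85 and 46.6 ± 1.08 CPM (edgeR adjusted p = 0.149 and 0.0904). Its target Zbtb16 averaged 7.02 ± 2.84, 6.66 ± 1.96 and 3.47 ± 0.548 CPM (edgeR adjusted p = 0.101 and 0.132). Pdk4, on the same list, went the other way, and every library labelled Grg3Grg4 lay below the controls. Its log2 changes of -0.76 (label Grg3Grg4) and -0.19 (label Grg3) did not pass (edgeR adjusted p = 0.0758 and 0.633). Of the 11 genes, 6 had a log2 change below 0 for the label Grg3Grg4 and 5 for the label Grg3.

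Of 11 Nrf2 targets of oxidative stress, 0 passed by edgeR for the label Grg3Grg4 (3 at an unadjusted p under 0.05) and 0 for the label Grg3 (2 at an unadjusted p under 0.05), with medians of -0.06 and 0.00. Nqo1, a quinone reductase, stood at 1.73 ± 0.472, 2.92 ± 0.296 and 1.62 ± 0.570 CPM (edgeR adjusted p = 0.900 and 0.177). Of 9 tested genes of the interleukin-6 and STAT3 response, 0 passed by edgeR for the label Grg3Grg4 (3 at an unadjusted p under 0.05) and 0 for the label Grg3 (2 at an unadjusted p under 0.05), with medians of -0.23 and 0.10. Socs3, the feedback inhibitor of that pathway, stood at 11.4 ± 0.423, 15.6 ± 2.36 and 15.9 ± 1.48 CPM (edgeR adjusted p = 0.0779 and 0.931). Of 13 genes of copper and iron handling, 0 passed by edgeR for either label (6 each at an unadjusted p under 0.05), and the copper pump Atp7b stood at 13.8 ± 3.24, 11.04 ± 2.82 and 7.32 ± 1.11 CPM (edgeR adjusted p = 0.0681 and 0.196). Over all 8 lists, which hold 71 tested genes, edgeR called 3 for the label Grg3Grg4 and 2 for the label Grg3. Of all genes, it called 2.14% and 1.40%. DESeq2's Wald test called 11 and 13 of them, where it called 8.16% and 8% of all genes, and 7 between the groups labelled mutant, where it called 5.81% of all genes.

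Across the 9 libraries the levels of Mt1 and Mt2 followed each other closely, with a Pearson r of 0.99 of their log2 levels. Slc30a1 had an r of 0.72 with Mt1, and Mtf1 an r of -0.53 with Mt1. These values describe 9 libraries that fall into 3 groups and share their scaling. Among 11341 other genes with a mean of at least 5 CPM, those with the pattern most like Mt1 were Drg2, Tomm40, Aqp8, Tmub2 and Gadd45b, with r from 0.96 to 0.97. Those most like Mt2 were Tomm40, Drg2, Galt, Aqp8 and Aldh2, with r from 0.95 to 0.99, so that Tomm40, Drg2 and Aqp8 came up for both. Tomm40 is the import pore of the outer mitochondrial membrane, and its level varied far less than Mt1, from 31.5 to 48.7 CPM.

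Aqp8, a water channel of acinar cells, was measured at 179, 158 and 158.5 CPM in replicates 1, 2 and 3 labelled Grg3Grg4. The libraries labelled Grg3 had 216, 115 and 260 CPM, against 65.7, 88.5 and 66.8 CPM in the controls. Replicate 3 labelled Grg3 was the highest and replicate 2 the lowest of the 6, a likeness to Mt1 for which the gene was picked. The genes most like Slc30a1 were Psmb6, Timm17b, Polr2e, Zdhhc12 and Psma4 (r from 0.93 to 0.96), and those most like Mtf1 were Tnrc6b, Vps13c, Ankrd12, Trim56 and Ago2 (r from 0.93 to 0.96). None of these was named for Mt1 or Mt2.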

How the data were processed

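Each library came as 1 deposited file of raw read counts, keyed by gene symbol and not normalized. According to the submitters' processing notes, reads went through tools that include HISAT2, HTSeq, DESeq2, Trim Galore, FastQC and bedtools, and the genome was mm10 (GRCm38), with no role stated for any tool. Their versions, the annotation and the strand setting were not given in the sources used here. Between 28.5% and 33.2% of a library's reads stood in the 5 rows that name no gene, and these rows were dropped. Replicates differed by more than counting noise (chi-square per degree of freedom from 17.1 to 193).

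The test was the 2-sided quasi-likelihood F test of edgeR 4.0.16 (R 4.3.3) on all 9 libraries in 1 fit with a mean per group, TMM scaling and filterByExpr (minimum count 10, minimum total 15), called at a Benjamini-Hochberg adjusted p under 0.05 over 19166 genes. SE values were derived from the F statistic (absolute log2 change over root F), and CPM values used the TMM scaling. Positions and exon lengths come from GENCODE M21 (GRCm38), which may not be the authors' annotation. The alternatives were DESeq2 1.42.0 (size factors, Wald test), limma 3.58.1 (voom with quality weights), other filters, terms for sex or replicate number, the 6 libraries compared, acinar enzymes left out of the scaling and each library left out.

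The 4 genes and the gene lists were chosen with earlier results of these data known. Named genes were the 4 members, list members that were called or had the 3 smallest p of their list (not all are printed), up to 5 genes most like each member, and leading markers. Gm45774, Actc1, Csrp1, Slc30a2, Slc39a5, Slc39a11 and the comparison of order with Alb were chosen after their values were seen. So were Foxa1, Lgals4, Gkn1, Gkn2, Tff1, Lpl, Adipoq, Plin1 and Cidec.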

Additional observations from a re-analysis of the deposited data

How the results depend on the processing

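The direction of Mt1 and Mt2 over control was the same under all alternatives: for the label Grg3Grg4 the log2 change ran from 1.29 to 1.81 for Mt1 and from 2.19 to 2.93 for Mt2, and for the label Grg3 from 1.92 to 2.94 and from 3.52 to 4.66. The counts of called genes moved far more. For the label Grg3Grg4, 410 genes were called, against 254 with the replicate block, 30 with sex, 750 with only the 6 libraries, 930 with no filter, 1033 by voom, 1553 by DESeq2 and from 50 to 825 with 1 library left out. For the label Grg3, 268 were called, against 167 with the replicate block, 169 with sex, 421 by voom, 586 with no filter, 1463 by DESeq2 and from 32 to 327 with 1 library left out. Between the groups labelled mutant, 36 were called, against 11 with the replicate block, 4 with sex, 10 with only the 6 libraries, 75 with the stricter filter (1 CPM in 3 libraries), 228 with no filter, 1019 by DESeq2 and from 6 to 49 with 1 library left out.

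Of the 71 listed genes, 3 were called for the label Grg3Grg4, against 0 with sex, 6 with no filter, 6 with only the 6 libraries, 8 by voom, 11 by DESeq2 and from 0 to 8 with 1 library left out. For the label Grg3, 2 were called, against 0 with the replicate block, 0 with sex, 0 with only the 6 libraries, 1 by voom, 5 with no filter, 13 by DESeq2 and from 0 to 2 with 1 library left out. Between the groups labelled mutant, 0 were called by edgeR (17 at an unadjusted p under 0.05), against 1 with no filter, 1 with the stricter filter, 7 by DESeq2 and from 0 to 1 with 1 library left out. The cause of these shifts was not tested. Same-numbered libraries shared only a number: their deviations correlated at -0.09 to 0.09, and in 6 of 18 cases a library correlated best with its own number, so the fit with the replicate block pairs nothing by design. The lowest counts behind any of the 4 genes were those of Mt2 in the controls, from 27 to 105.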
